A study of Homo sapiens with 12 samples.

Results

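The MET, AXL and matriptase axis was described here by 10 genes, chosen by name from the 58302 genes of the deposited expression table, and all 10 were found in it. They are the ligands HGF and GAS6, the receptor tyrosine kinases MET, MST1R, AXL, TYRO3 and MERTK, the protease matriptase (ST14) and its inhibitors SPINT1 and SPINT2. RNA was sequenced from 3 established human prostate cell lines without any treatment, with 4 libraries of each line, all labelled wild type and grown in the same serum-containing medium. BPH-1 is an immortalised line from benign prostatic hyperplasia, and the prostate cancer (PCa) lines DU145 and PC3 were derived from metastases to brain and to bone. The study set the benign line against PCa cells to find genes that differ between them. Its paper names BPH-1 and PC3 for this comparison, as a screen of chloride channel genes. Each line stands for itself alone, and because nothing says that the libraries of a line came from separate cultures, the p-values measure the spread between these libraries, which may be technical.

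HGF is made mostly by stromal cells as an inactive single chain. Proteases at the cell surface, matriptase among them, cut it into the active form, which binds MET on epithelial cells and drives motility, growth and scattering. MST1R is the nearest relative of MET and binds MST1, while AXL, TYRO3 and MERTK form the TAM family of receptors, whose bridging ligands are GAS6 and protein S (PROS1). SPINT1 and SPINT2 are membrane-bound Kunitz-type inhibitors that hold matriptase in check in epithelia.

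Levels are given as FPKM, fragment counts scaled to gene length and sequencing depth. The length is the sum of the distinct exons of a gene, so bases shared by overlapping exons count more than once. For MST1R it was 13735 bases against 5252 when exons are merged, and for AXL 7099 against 5154. Levels, ranks and ratios across genes therefore depend on this length, while each gene can be compared between lines. The lines showed different members of the axis at high levels. BPH-1 had high MET (41.6 ± 7.54 FPKM, SD, n = 4) and high ST14 (38.9 ± 14.5). DU145 was led by AXL (158 ± 23.9), with low MET, ST14 and inhibitors. PC3 held MET (32.3 ± 16.2) and AXL (41.7 ± 8.10) together with the highest MST1R (9.95 ± 2.23) and SPINT2 (22.3 ± 4.83) of the lines, and had little ST14 (1.22 ± 0.209). HGF RNA was at or near 0 in every library.

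**Figure D1:**
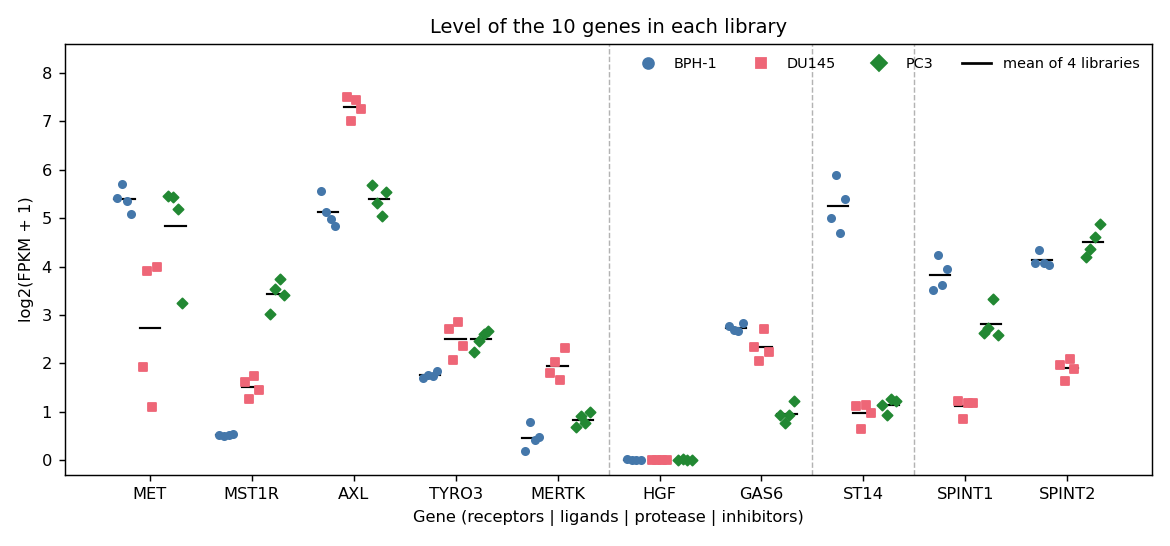
Level of each of the 10 genes as log2(FPKM + 1), with 1 point for each library, coloured and shaped by line, and a black bar at the mean of the 4 libraries. AXL in DU145 lies above every other value, ST14 is high in BPH-1 alone, HGF lies at 0 throughout, and the MET points of DU145 and PC3 are spread widely.

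The libraries held between 12950665 and 16309560 reads, as recovered from the steps between low values. DU145 replicates 1 and 3 and PC3 replicate 4 stood apart from the other libraries of their lines. The median log2(FPKM + 1) of the GC-poorest quintile of expressed genes minus that of the GC-richest quintile was -1.89, -2.33 and -1.98 in these libraries, between -0.48 and -1.42 in the other DU145 and PC3 libraries, and between 0.37 and 0.63 in BPH-1. Member results that rest on these libraries are given with and without them, as are those of some other genes whose call or size they changed. Of the 6 epithelial markers, KRT8 and KRT18 had means between 19.7 and 69.0 FPKM over the lines, while the basal keratins KRT5 and KRT14 had 147 and 203 FPKM in BPH-1 and at most 0.216 in DU145 and PC3. The adhesion genes EPCAM and CDH1 were near 0 in DU145, at means of 0.376 and 0.180 FPKM, against 60.8 and 28.4 in BPH-1 and 9.10 and 0.786 in PC3. DU145 cells are usually described as expressing both genes, so DU145 stands here for the libraries that carry that label. The prostate markers KLK3 and KLK2 had means of at most 0.00284 FPKM in each line. Of the 5 fibroblast markers, COL1A1 alone reached a mean of 1 FPKM, in BPH-1 and PC3, and their summed level was 1.98 to 3.72 FPKM in BPH-1, 0.660 to 1.74 in DU145 and 3.09 to 3.98 in PC3. The fibroblast marker DCN was at 0 in every BPH-1 and PC3 library and in DU145 replicates 1 and 2, with 0.373 and 0.214 FPKM in DU145 replicates 3 and 4. The 3 endothelial markers summed to 0.231 to 0.615 FPKM in BPH-1, 0.0548 to 0.350 in DU145 and 1.19 to 2.28 in PC3. Of the 3 leukocyte markers, CD3E was at 0 in all libraries, while the sum was 4.83 to 8.11 FPKM in BPH-1, 5.06 to 9.95 in DU145 and 6.86 to 13.5 in PC3, most of it CD68. PTPRC had 1.35 and 1.25 FPKM in DU145 replicates 1 and 2 and 0 in replicates 3 and 4, against 1.15 to 1.54 in BPH-1 and 0 in PC3. The part of these levels in the results below was not tested.

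The promoters of MET, MST1R, AXL and SPINT1 are shown as examples of receptors and an inhibitor that differed between lines and had a window in the RefSeq set. Each window holds 300 bases around the RefSeq transcription start on GRCh38.p14, read 5′ to 3′ on the strand of the gene. Capitals mark the E2 box, searched as CAGGTG and its reverse complement CACCTG, the element that the repressors SNAI1 and ZEB1 are known to bind in epithelial genes.
MET (chr7:116671946-116672245, plus strand): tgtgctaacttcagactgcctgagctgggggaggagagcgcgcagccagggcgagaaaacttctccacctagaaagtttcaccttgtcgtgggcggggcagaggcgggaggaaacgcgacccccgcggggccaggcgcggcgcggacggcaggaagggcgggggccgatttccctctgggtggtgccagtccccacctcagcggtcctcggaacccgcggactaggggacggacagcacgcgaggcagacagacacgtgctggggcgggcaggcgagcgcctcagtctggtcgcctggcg
MST1R (chr3:49903824-49904123, minus strand): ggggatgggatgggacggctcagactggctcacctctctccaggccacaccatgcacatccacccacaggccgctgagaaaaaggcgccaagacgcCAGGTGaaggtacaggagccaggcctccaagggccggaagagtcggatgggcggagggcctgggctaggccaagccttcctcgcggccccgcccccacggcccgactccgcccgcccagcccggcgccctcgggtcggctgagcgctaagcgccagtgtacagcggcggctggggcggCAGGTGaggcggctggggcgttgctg
AXL (chr19:41218973-41219272, plus strand): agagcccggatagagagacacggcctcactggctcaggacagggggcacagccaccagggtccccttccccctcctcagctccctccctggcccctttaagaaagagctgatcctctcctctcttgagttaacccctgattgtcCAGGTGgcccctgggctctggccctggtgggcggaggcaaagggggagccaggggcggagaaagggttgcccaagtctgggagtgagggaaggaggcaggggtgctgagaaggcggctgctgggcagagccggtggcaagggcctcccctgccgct
SPINT1 (chr15:40843798-40844097, plus strand): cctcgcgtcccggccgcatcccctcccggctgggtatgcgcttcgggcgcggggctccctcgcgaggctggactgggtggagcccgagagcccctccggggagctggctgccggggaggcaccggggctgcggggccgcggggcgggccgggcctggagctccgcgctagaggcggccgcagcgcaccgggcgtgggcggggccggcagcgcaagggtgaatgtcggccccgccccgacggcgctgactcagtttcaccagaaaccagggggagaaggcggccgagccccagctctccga
The E2 box was present in the AXL window at 106 bases before the start and in the MST1R window at 154 bases before and 25 bases after it, counting to its first base. These letters were not found in the MET window or in the SPINT1 window shown. AXL and SPINT1 each have a second RefSeq start, where the SPINT1 window held an E2 box 26 bases before the start and the AXL window held none. The GAS6 window held 1, and the windows of HGF, TYRO3 and MERTK held none. Of 35116 RefSeq windows of the same length, 20.6% held an E2 box. The GC box, searched as GGGCGG and CCGCCC, occurred 3 times in the MET window, 5 times in MST1R, 2 times in AXL and 3 times in SPINT1, and 45.0% of all windows held at least 1. The AXL window had 7 CpG dinucleotides, against 30 in MET, 25 in MST1R and 38 in SPINT1, and the median of all windows was 14. Of the 10 genes, 8 had at least 1 window in the RefSeq set, and HGF, like AXL, had 7 CpGs in its window.

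HGF, the ligand of MET (chromosome 7, 81699006 to 81770438, minus strand, GRCh38), was not detected above a few reads. BPH-1 replicate 1 had 3 reads, PC3 replicates 1 and 2 had 1 and 2 reads, and the other libraries had 0, where up to 3 reads are compatible with a count of 0. In BPH-1 replicate 1 those 3 reads amounted to 0.0168 FPKM. HGF did not pass the filter on low values and was therefore not tested.

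GAS6, the vitamin K-dependent ligand of the TAM receptors (chromosome 13, 113820549 to 113864067, minus strand), was expressed by the cells themselves. Its FPKM was 5.80, 5.42, 5.40 and 6.12 in BPH-1 replicates 1 to 4, 4.07, 3.17, 5.57 and 3.74 in DU145, and 0.901, 0.697, 0.913 and 1.33 in PC3. All PC3 libraries lay below all others, and the DU145 and BPH-1 ranges overlapped through DU145 replicate 3. GAS6 was 5.92-fold lower in mean FPKM in PC3 than in BPH-1 (log2 fold change -1.78, SE 0.12, limma with Benjamini-Hochberg adjustment, adjusted p = 2.34e-06). Here and below, log2 fold changes are of FPKM + 1, which understates the change of low genes. GAS6 was also lower in PC3 than in DU145 (-1.38, SE 0.18, limma adjusted p = 0.000234). DU145 against BPH-1 did not pass the threshold (-0.40, 95% interval -0.78 to -0.01, limma adjusted p = 0.0663). It did without DU145 replicate 3 (-0.52, limma adjusted p = 0.0123) and without the libraries that stood apart (-0.59, adjusted p = 0.00388). Over 19 alternative settings this difference ranged from -1.12 to -0.15 and passed in 5.

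MET, the HGF receptor (chromosome 7, 116672390 to 116798386, plus strand), had 41.8, 51.5, 40.0 and 33.2 FPKM in BPH-1 replicates 1 to 4. In DU145 it had 2.78, 14.1, 1.14 and 15 FPKM, and in PC3 42.9, 42.3, 35.7 and 8.50. The 4 BPH-1 libraries lay close together, 3 PC3 libraries fell within their range, and all DU145 libraries lay below BPH-1. The low MET values within DU145 and within PC3 were those of the 3 libraries that stood apart. Its highest value was 13.1 times its lowest in DU145 and 5.05 times in PC3, and the SD of its log2(FPKM + 1) was larger than that of 99.5% of 10835 expressed genes in each of these lines. The exons of MET have 43.9% GC, below the median of 49.4% over these genes.

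MET was 5.04-fold lower in mean FPKM in DU145 than in BPH-1 (log2 fold change -2.66, SE 0.59, limma adjusted p = 0.00297). Without the libraries that stood apart the difference was smaller and again passed the test (-1.44, SE 0.17, limma adjusted p = 0.000393). PC3 against BPH-1 did not pass it (-0.56, 95% interval -1.57 to 0.44, limma adjusted p = 0.286), and was -0.03 without PC3 replicate 4. MET was higher in PC3 than in DU145 (2.1, SE 0.74, limma adjusted p = 0.0417) with overlapping ranges. That call was lost without any 1 of DU145 replicates 1 (1.83, adjusted p = 0.107) and 3 (1.56, adjusted p = 0.0891) or PC3 replicates 1 (1.89, adjusted p = 0.101), 2 (1.90, adjusted p = 0.102) and 3 (1.98, adjusted p = 0.0966). Without the 3 libraries that stood apart it was 1.40 (SE 0.11, limma adjusted p = 0.000288), so the order BPH-1 and PC3 above DU145 was measured with and without them.

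**Figure D2:**
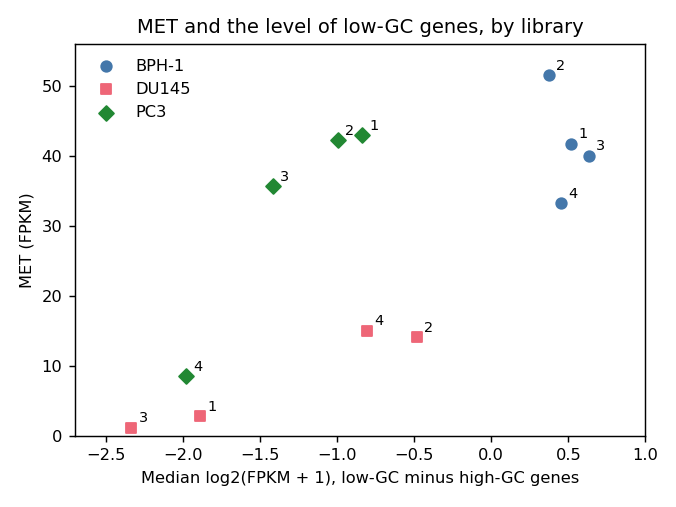
MET level in FPKM (vertical axis) against the median log2(FPKM + 1) of GC-poor minus GC-rich genes (horizontal axis), with 1 point for each library labelled with its replicate number. DU145 replicates 1 and 3 and PC3 replicate 4, at 2.78, 1.14 and 8.50 FPKM, have the lowest values on both axes, and the remaining DU145 libraries, at 14.1 and 15 FPKM, lie below all BPH-1 and the remaining PC3 libraries.

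MST1R, the receptor for MST1 also known as RON (chromosome 3, 49887002 to 49903873, minus strand), rose in the order BPH-1, DU145 and PC3. Its FPKM was 0.430, 0.415, 0.427 and 0.467 in BPH-1 replicates 1 to 4, 2.08, 1.40, 2.34 and 1.73 in DU145, and 7.07, 10.6, 12.4 and 9.68 in PC3. The 3 lines did not overlap at any point. MST1R was 22.9-fold higher in mean FPKM in PC3 than in BPH-1 (log2 fold change 2.91, SE 0.16, limma adjusted p = 4.36e-07), 4.34-fold higher in DU145 than in BPH-1 (1.0, SE 0.12, limma adjusted p = 6.95e-05) and 5.28-fold higher in PC3 than in DU145 (1.91, SE 0.19, limma adjusted p = 4.51e-05). With the GC trend of each library divided out, the difference from BPH-1 was 0.57 in DU145 (limma adjusted p = 0.000458) and 2.39 in PC3 (adjusted p = 1.62e-06). Without DU145 replicates 1 and 3, that of DU145 was 0.83 (limma adjusted p = 0.000216). The ratio of MET to MST1R was 96.6 ± 21.7 in BPH-1, 5.14 ± 4.93 in DU145 and 3.45 ± 2.17 in PC3. In DU145 replicate 3 and in PC3 replicate 4 the ratio was below 1, at 0.487 and 0.878, by the gene lengths used.

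AXL, a TAM receptor with high affinity for GAS6 (chromosome 19, 41219203 to 41261766, plus strand), was the most abundant member in DU145. Its FPKM was 46.5, 34, 30.6 and 27.5 in BPH-1 replicates 1 to 4, 182, 128, 172 and 151 in DU145, and 50.6, 38.6, 32.0 and 45.5 in PC3. Every DU145 library lay above every other library, and the BPH-1 and PC3 ranges overlapped. AXL ranked 88th by mean FPKM among 19817 protein-coding genes in DU145, 577th in PC3 and 648th in BPH-1. It was 4.56-fold higher in mean FPKM in DU145 than in BPH-1 (log2 fold change 2.17, SE 0.19, limma adjusted p = 9.97e-06) and 3.79-fold lower in PC3 than in DU145 (-1.91, SE 0.18, limma adjusted p = 2.87e-05). PC3 and BPH-1 did not differ past the threshold (0.27, 95% interval -0.16 to 0.69, limma adjusted p = 0.232). The sign of that small difference turned to -0.39 (adjusted p = 0.142) when the trend of each library with GC content was divided out, and upper-quartile scaling gave 0.65 (adjusted p = 0.0181). With the GC trend divided out, the difference between DU145 and BPH-1 was 1.36 (adjusted p = 0.000422).

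TYRO3 (chromosome 15, 41557675 to 41583586, plus strand), which among the TAM receptors is known best from the nervous system, was present in all lines at a few FPKM. It had 2.24, 2.38, 2.34 and 2.62 FPKM in BPH-1 replicates 1 to 4, 5.57, 3.23, 6.19 and 4.11 in DU145, and 3.74, 4.5, 5.12 and 5.34 in PC3. Both PCa lines lay above BPH-1 in every library and overlapped each other. The log2 fold change against BPH-1 was 0.73 in PC3 (SE 0.12, limma adjusted p = 0.000574) and 0.74 in DU145 (SE 0.19, limma adjusted p = 0.00708). The DU145 difference was 0.46 without DU145 replicates 1 and 3 (adjusted p = 0.0189), and with the GC trend divided out it was 0.13 and no longer passed (adjusted p = 0.350), while that of PC3 was 0.27 (adjusted p = 0.0491). PC3 against DU145 did not pass the threshold (0.00 when rounded, 95% interval -0.46 to 0.45, limma adjusted p = 0.988).

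MERTK, the TAM receptor of macrophages and of the retinal epithelium (chromosome 2, 111898479 to 112029561, plus strand), was highest in DU145. It had 0.148, 0.720, 0.329 and 0.397 FPKM in BPH-1 replicates 1 to 4, 2.49, 3.07, 2.17 and 4.00 in DU145, and 0.605, 0.881, 0.698 and 0.991 in PC3. All DU145 libraries lay above the rest, and BPH-1 replicate 2 lay within the PC3 range. MERTK was 7.36-fold higher in mean FPKM in DU145 than in BPH-1 (log2 fold change 1.49, SE 0.18, limma adjusted p = 6.63e-05) and 3.70-fold lower in PC3 than in DU145 (-1.12, SE 0.17, limma adjusted p = 0.000585). PC3 against BPH-1 passed narrowly (0.37, SE 0.12, limma adjusted p = 0.0231). It no longer passed without BPH-1 replicate 1 (0.28, adjusted p = 0.0647) or 3 (0.35, adjusted p = 0.0572), or without PC3 replicate 2 (0.34, adjusted p = 0.0555) or 4 (0.32, adjusted p = 0.0605).

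By FPKM, the TAM family as a whole was mostly AXL in each line. AXL made up 92.2% ± 2.09 of the summed FPKM of AXL, TYRO3 and MERTK in BPH-1, 95.3% ± 0.345 in DU145 and 88.1% ± 3.06 in PC3 (SD, n = 4). The sum was 37.5 ± 8.06 FPKM in BPH-1, 166 ± 24.7 in DU145 and 47.2 ± 7.73 in PC3. Relative to the ligand, the ratio of AXL to GAS6 was 6.11 ± 1.46 in BPH-1, 39.0 ± 5.78 in DU145 and 45.2 ± 12.2 in PC3. DU145 and PC3 overlapped in this ratio, and both lay above BPH-1 in every library.

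ST14, which encodes matriptase, a type II transmembrane serine protease of epithelia (chromosome 11, 130159562 to 130210376, plus strand), had the largest difference of the axis against BPH-1 in both PCa lines. Its FPKM was 31.1, 58.2, 25.1 and 41.1 in BPH-1 replicates 1 to 4, 1.17, 0.570, 1.19 and 0.973 in DU145, and 1.22, 0.924, 1.40 and 1.33 in PC3. The lowest BPH-1 library lay far above the highest of either PCa line, and DU145 and PC3 overlapped. These low levels rested on 47 to 96 reads a library in DU145 and 64 to 98 in PC3, against 1968 to 4490 in BPH-1. ST14 was 39.8-fold lower in mean FPKM in DU145 (log2 fold change -4.28, SE 0.25, limma adjusted p = 8.76e-07) and 31.9-fold lower in PC3 (-4.10, SE 0.23, limma adjusted p = 5.74e-07) than in BPH-1. Between the PCa lines the difference did not pass the threshold (0.17, 95% interval -0.15 to 0.49, limma adjusted p = 0.346). In bulk RNA, fewer cells that express a gene and less of its RNA in each cell cannot be told apart.

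SPINT1, the inhibitor also called HAI-1 (chromosome 15, 40844018 to 40858207, plus strand), fell from BPH-1 to PC3 to DU145. It had 10.4, 17.8, 11.2 and 14.4 FPKM in BPH-1 replicates 1 to 4, 5.19, 5.67, 9.08 and 5.0 in PC3, and 1.33, 0.809, 1.27 and 1.27 in DU145. No library of a line overlapped with those of another. SPINT1 was 11.5-fold lower in mean FPKM in DU145 than in BPH-1 (log2 fold change -2.72, SE 0.19, limma adjusted p = 2.79e-06), 2.16-fold lower in PC3 than in BPH-1 (-1.01, SE 0.21, limma adjusted p = 0.00206) and 5.32-fold higher in PC3 than in DU145 (1.71, SE 0.20, limma adjusted p = 0.000116). The PC3 difference against BPH-1 was -0.65 with upper-quartile scaling and -1.70 with the GC trend divided out.

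SPINT2, also called HAI-2 and active against hepsin and prostasin as well as matriptase (chromosome 19, 38244035 to 38292614, plus strand), went with SPINT1 in DU145 but not in PC3. Its FPKM was 15.9, 19.2, 15.9 and 15.3 in BPH-1 replicates 1 to 4, 2.92, 2.13, 3.25 and 2.68 in DU145, and 17.4, 19.7, 23.4 and 28.5 in PC3. DU145 lay below both other lines, whose ranges overlapped. SPINT2 was 6.04-fold lower in mean FPKM in DU145 than in BPH-1 (log2 fold change -2.23, SE 0.16, limma adjusted p = 2.56e-06) and 8.10-fold higher in PC3 than in DU145 (2.62, SE 0.18, limma adjusted p = 4.81e-06). PC3 was higher than BPH-1 at the edge of the threshold (0.39, SE 0.15, limma adjusted p = 0.0490), a call made in 4 of 19 alternative settings and of opposite sign, -0.23, with the GC trend divided out. It was lost without BPH-1 replicate 1, 3 or 4 (0.37, 0.37 and 0.35, adjusted p = 0.10, 0.0982 and 0.112) and without PC3 replicate 2, 3 or 4 (0.43, 0.35 and 0.26, adjusted p = 0.0534, 0.110 and 0.0896).

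Matriptase RNA relative to that of its inhibitors differed between all lines. The ratio of ST14 to the sum of SPINT1 and SPINT2 was 1.18, 1.57, 0.923 and 1.38 in BPH-1 replicates 1 to 4, 0.276, 0.194, 0.263 and 0.246 in DU145, and 0.0540, 0.0364, 0.0430 and 0.0397 in PC3. The 3 lines did not overlap. By FPKM the protease was near the level of its inhibitors in BPH-1 and far below it in PC3, which depends on the gene lengths used. The means were 1.27 ± 0.279, 0.245 ± 0.0360 and 0.0433 ± 0.00767 (SD, n = 4). The FPKM of SPINT2 exceeded that of SPINT1 in every library, by a ratio of 1.27 ± 0.236 in BPH-1, 2.37 ± 0.261 in DU145 and 3.78 ± 1.34 in PC3. In BPH-1 replicate 4 the ratio was 1.06. The length used was 9776 bases for SPINT2 (5199 with exons merged) and 7429 for SPINT1 (3542 merged). The order of these genes in BPH-1 therefore depends on how length is defined.

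**Figure D3:**
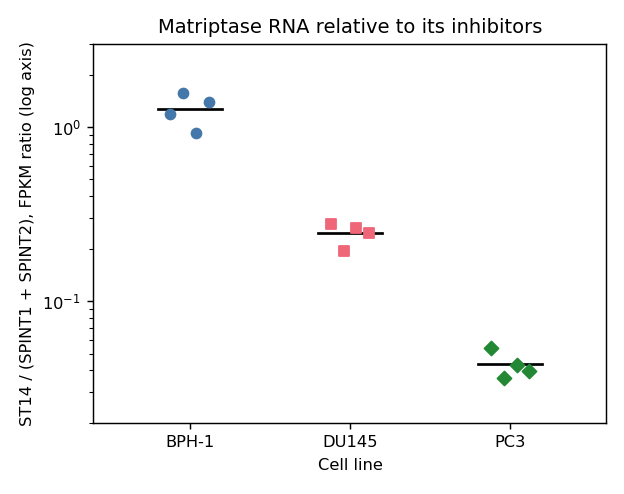
Ratio of ST14 to the sum of SPINT1 and SPINT2 in FPKM, on a log axis, with 1 point for each library and a bar at the mean of each line. BPH-1 lies between 0.923 and 1.57, DU145 between 0.194 and 0.276 and PC3 between 0.0364 and 0.0540, with no overlap.

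Of the 9 members tested, 4 were higher and 3 lower in PC3 than in BPH-1 at a limma adjusted p under 0.05, where 67.7% of 16417 genes tested were called (26.9% higher and 40.7% lower). In DU145 against BPH-1, 4 were higher and 4 lower, where 62.5% of 17138 genes were called (30.3% higher and 32.3% lower). In PC3 against DU145, 4 were higher and 3 lower, where 48.4% of 16374 genes were called (19.9% higher and 28.5% lower). The share of members called was thus 77.8%, 88.9% and 77.8% of 9 genes. Without the libraries that stood apart the counts were 5, 9 and 7. Over all genes in that setting, 4473 were higher and 6880 lower of 16912 tested in PC3 against BPH-1. In DU145 against BPH-1 they were 5204 and 5347 of 17957, and in PC3 against DU145 3987 and 5873 of 17032. The median log2 fold change over the tested members was 0.27, -0.40 and 0.17 in these comparisons, and over all genes tested -0.13, -0.03 and -0.06. The scaling moved the median over all genes of PC3 against BPH-1 to -0.28 with the same summed FPKM in every library and to 0.09 with upper-quartile scaling, and that of DU145 against BPH-1 to -0.16 and 0.13. The comparisons share libraries, each line being used in 2 of them. Members without overlap between the lines numbered 5, 8 and 6, against 64.5%, 59.4% and 46.6% of all genes tested.

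**Figure D4:**
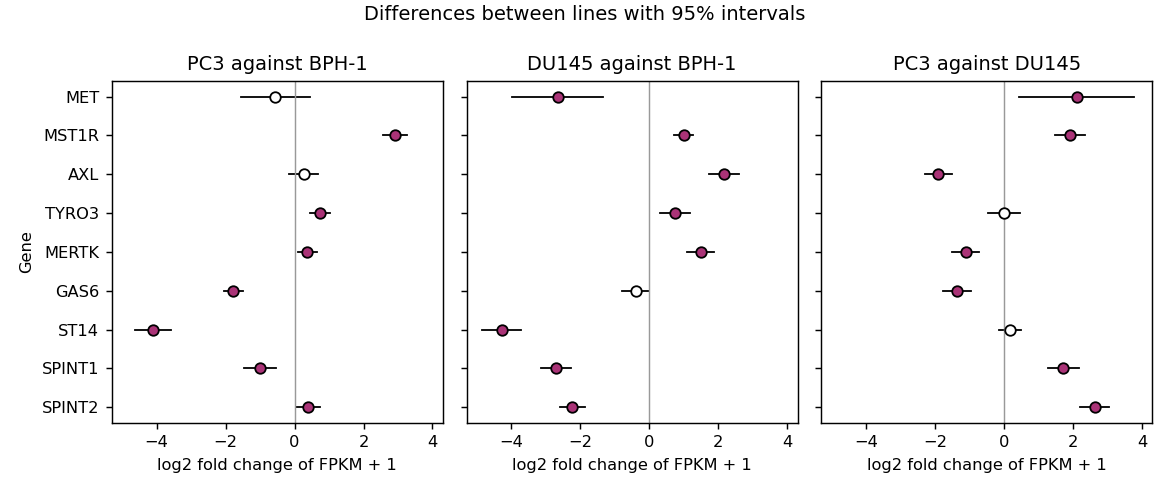
Log2 fold change of FPKM + 1 (horizontal axis) of the 9 tested members in the 3 comparisons, with 95% intervals from limma. Filled points passed an adjusted p of 0.05 and open points did not. ST14 at -4.10 and -4.28 lies farthest from 0 against BPH-1, MST1R in PC3 lies at 2.91 and AXL in DU145 at 2.17, while SPINT2 in PC3 against BPH-1 (0.39) turns to -0.23 with the GC trend divided out.

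Reads of overlapping genes could not be told apart because no source used here states that strand was counted. Exons of GAS6 share 421 bases with GAS6-AS1, those of MST1R 327 bases with AC105935.2 and 29 with AC105935.1, those of SPINT1 100 bases with SPINT1-AS1 and those of AXL 67 bases with AC011510.1, all on the opposite strand. SPINT2 shares 242 bases with AC011479.1 on the same strand.

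The other genes of the pathway were a list of 47 ligands, proteases, substrates, receptor partners, adaptors, down-regulators and sheddases. In PC3 against BPH-1, 13 were higher and 22 lower of 44 tested, with a median log2 fold change of -0.59. In DU145 against BPH-1, 9 were higher and 23 lower of 44 (median -0.46), and in PC3 against DU145, 18 were higher and 8 lower of 41 (median 0.38). Without the libraries that stood apart, 35, 34 and 35 were called, and the numbers over all genes in that setting are given above. In PC3 against DU145, 3987 of all genes were then higher and 5873 lower of 17032, against 3252 and 4666 of 16374 with all libraries. The call changed for 4, 4 and 10 genes of the list. These were PTPRJ, RAPGEF1, CRK and F2RL1, then PTPRJ, CBL, LRIG1 and ADAM17. In PC3 against DU145 they were PTPRJ, CBL, CD44, EGFR, CRK, PIK3R1, GAB1, GAB2, GRB2 and ADAM10. CBL in DU145 against BPH-1 went from 0.02 to 1.14 (limma adjusted p = 0.00013). Not all of these changes are given again below. With all libraries, the shares called over all genes are those given above, 67.7%, 62.5% and 48.4%, against 79.5%, 72.7% and 63.4% of the list. These counts are no support for a difference of the list as a whole, because in each comparison 6 of its genes passed the filter on low values only through the line where they were high; such genes are given below by their values, without a test. All 9 tested members had at least 10 reads in every library.

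Among the 5 other ligands, 4 were tested. MST1, the ligand of MST1R, was low throughout, at 0.0764 ± 0.0331 FPKM in BPH-1, 0.130 ± 0.0108 in DU145 and 0.0768 ± 0.0202 in PC3, and passed the test in no comparison (limma adjusted p of 0.984, 0.132 and 0.127). PROS1, which encodes protein S, had 1.72 ± 0.971, 1.41 ± 1.23 and 0.827 ± 0.441 FPKM in the same order and did not pass either (limma adjusted p of 0.0902 and 0.572 for PC3 and DU145 against BPH-1, and of 0.485 between the PCa lines). The ligand of MST1R and protein S thus overlapped between BPH-1 and each PCa line. LGALS3 and TUB, known as ligands of MERTK, differed. LGALS3 (galectin-3) was highest in PC3 (23.2 ± 4.42 FPKM, against 14.9 ± 1.87 in BPH-1, limma adjusted p = 0.00580) and lower in DU145 (9.67 ± 1.88, adjusted p = 0.0155). TUB fell from 6.0 ± 0.349 FPKM in BPH-1 to 2.47 ± 1.19 in DU145 (limma adjusted p = 0.00296), and had 2 to 6 reads a library in PC3 (0.0375 ± 0.0178 FPKM). TULP1 had 1 read in 1 PC3 library and 0 elsewhere.

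Of the 8 proteases that activate HGF or its relatives or work with matriptase, 6 passed the filter in PC3 against BPH-1, of which PRSS8, TMPRSS13 and TMPRSS4 passed only through BPH-1. The other 3, TMPRSS2, PLAU and F12, were higher in PC3. HGFAC and HPN (hepsin), known activators of HGF, had at most 2 reads and 1 read in a library and were not tested. PRSS8 (prostasin), the partner of matriptase in epithelial proteolysis, had 6.25 ± 2.15 FPKM in BPH-1, 0.183 ± 0.0953 in PC3 (6 to 21 reads a library) and 0.0209 ± 0.0282 in DU145 (0 to 5 reads). It was thus low in the same lines as ST14. TMPRSS13 and TMPRSS4, relatives of matriptase in the same protease family, had 2.80 ± 1.29 and 0.689 ± 0.443 FPKM in BPH-1 and 0 reads in every PC3 library, at least 87.2- and 58.0-fold lower than in BPH-1 if each PC3 library is set to 3 reads. In DU145 they had 0 to 19 and 0 to 3 reads a library, or 0.102 ± 0.0742 and 0.00505 ± 0.00412 FPKM. TMPRSS2, an androgen-regulated prostate protease, went the other way, with 2.38 ± 0.497 FPKM in PC3 against 0.137 ± 0.0671 in BPH-1 (log2 fold change 1.56, limma adjusted p = 2.34e-06) and 0 to 3 reads a library in DU145. PLAU (urokinase) was abundant in all lines and higher in PC3 (213 ± 18.8 FPKM) than in BPH-1 (113 ± 36.7, limma adjusted p = 0.00284), with DU145 at 152 ± 34.7 (adjusted p = 0.140 against BPH-1). F12 (coagulation factor XII) was 2.84 ± 0.473 FPKM in PC3, above 0.962 ± 0.290 in BPH-1 (limma adjusted p = 0.000219), and 1.06 ± 0.197 in DU145 (adjusted p = 0.648).

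Substrates of matriptase were changed strongly, and not in 1 direction. CDCP1, a transmembrane protein that is cleaved by matriptase and signals through SRC, rose from 37.6 ± 3.38 FPKM in BPH-1 to 112 ± 16.1 in DU145 (log2 fold change 1.54, limma adjusted p = 2.02e-05) and 246 ± 27.9 in PC3 (2.67, adjusted p = 1.10e-07). F2RL1, the protease-activated receptor PAR2, had 24.7 ± 3.77 FPKM in BPH-1 and 33.0 ± 10.0 in PC3 (0.36, limma adjusted p = 0.203, and 0.61 with adjusted p = 0.00373 without PC3 replicate 4) but 2.45 ± 1.01 in DU145 (-2.93, adjusted p = 3.93e-06). The adhesion protein EPCAM fell in both PCa lines. It had 9.10 ± 1.81 FPKM in PC3 (-2.63 against BPH-1, limma adjusted p = 3.26e-07), and its value near 0 in DU145 is given above (-5.50, adjusted p = 2.24e-08).

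Partners of the receptors at the membrane were lower in DU145, all 5 of them, and 3 of 5 were lower in PC3. Of all genes tested, 32.3% were lower in DU145 and 40.7% in PC3. ITGB4 and ITGA6, the laminin-binding integrin pair of basal epithelium that associates with MET, had 60.3 ± 12.3 and 75.7 ± 9.63 FPKM in BPH-1 against 2.84 ± 0.697 and 7.69 ± 5.78 in DU145 (log2 fold change -3.99 and -3.43, limma adjusted p = 3.29e-07 and 0.000123). Without DU145 replicates 1 and 3, ITGA6 was at -2.49. In PC3, ITGB4 had 40.3 ± 17.1 FPKM (limma adjusted p = 0.0588) and ITGA6 24.3 ± 10.0 (-1.72, adjusted p = 0.00124). CD44, a MET co-receptor in some isoforms, was lower than in BPH-1 in both DU145 and PC3 (10.8 ± 4.12 and 9.58 ± 0.918 FPKM, against 30.9 ± 1.74 in BPH-1, limma adjusted p = 0.000453 and 1.31e-06). EGFR, which is activated together with MET in many carcinomas, had 41.6 ± 4.61 FPKM in BPH-1, 17.8 ± 16.1 in DU145 (-1.78, limma adjusted p = 0.0393) and 11.5 ± 4.83 in PC3 (-1.84, adjusted p = 0.000105). Its DU145 libraries were at 5.60, 31.4, 2.33 and 31.9 FPKM, and without replicates 1 and 3 the difference from BPH-1 was 1.31-fold in mean FPKM (-0.38, adjusted p = 0.0282). PLXNB1, a semaphorin receptor that couples to MET and MST1R, was 0.589 ± 0.0743 FPKM in DU145, below 2.29 ± 0.347 in BPH-1 (-1.04, limma adjusted p = 5.11e-05), and 2.69 ± 0.202 in PC3 (adjusted p = 0.215).

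Of the 14 adaptors and relays, 5 were higher and 8 lower in PC3, and 5 higher and 5 lower in DU145, than in BPH-1. Of all genes tested, 26.9% were higher and 40.7% lower in PC3, and 30.3% higher and 32.3% lower in DU145. The 8 include STAT3, which passed the filter on low values only through BPH-1. STAT3, a transcription factor downstream of MET, had 15.4 ± 2.18 FPKM in BPH-1 and 24.2 ± 2.02 in DU145 but 0.0416 ± 0.0130 in PC3, from 6 to 12 reads a library. GAB1, the main docking protein of MET, was low in both PCa lines (1.72 ± 0.293 FPKM in BPH-1, 0.202 ± 0.140 in DU145 and 0.409 ± 0.164 in PC3). It passed the test in DU145 (-1.18, limma adjusted p = 2.03e-05) and in PC3 (-0.95, adjusted p = 7.07e-05). Its relative GAB2 went the opposite way, from 0.777 ± 0.275 FPKM to 2.58 ± 0.610 in DU145 (1.01, limma adjusted p = 0.000495) and 4.57 ± 1.31 in PC3 (1.63, adjusted p = 4.57e-05). SHC1, an adaptor to RAS, was 85.2 ± 30.1 FPKM in DU145, above 17.5 ± 1.58 in BPH-1 (2.15, limma adjusted p = 5.05e-05), and lower in PC3 (8.89 ± 1.17, adjusted p = 0.000123).

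CRKL and RAPGEF1, which link MET to RAP1, were likewise highest in DU145 (77.7 ± 8.72 and 23.3 ± 5.18 FPKM, against 24.5 ± 2.63 and 8.57 ± 1.51 in BPH-1, limma adjusted p = 1.14e-05 and 0.000247). SRC was highest in PC3, at 24.6 ± 1.98 FPKM against 7.67 ± 0.602 in BPH-1 (1.56, limma adjusted p = 1.64e-06), and GRB2, the adaptor between receptors and SOS1, was 42.9 ± 17.9 against 16 ± 4.92 (1.32, adjusted p = 0.00383). SOS1, PTPN11, PIK3R1 and PIK3CA, which carry the signal to RAS and to PI3K, were lower in both PCa lines. With all libraries the log2 fold changes were at least 1 in size (limma adjusted p between 8.00e-06 and 0.00334). PIK3R1 in DU145 was at -1.18 with all libraries and -0.89 without replicates 1 and 3 (limma adjusted p = 0.00257). PTPN11 had 4.71, 24.8, 2.40 and 24.0 FPKM in DU145, and its difference from BPH-1 was -2.92 with all libraries and -1.66 without replicates 1 and 3 (adjusted p = 0.000169), while SOS1 was at -2.32 and -1.83.

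Down-regulators and sheddases completed the list. The feedback inhibitors SPRY2 and SPRY4 rose in both PCa lines, SPRY2 from 2.04 ± 0.357 FPKM in BPH-1 to 14.7 ± 1.07 in DU145 (log2 fold change 2.37, limma adjusted p = 1.31e-06) and 25.4 ± 4.04 in PC3 (3.11, adjusted p = 1.58e-07). SPRY4 had 1.92 ± 0.419, 7.48 ± 0.171 and 13.5 ± 1.53 FPKM in the same order (limma adjusted p = 2.07e-05 and 8.78e-07). DUSP6, the phosphatase induced by ERK, was highest in PC3 (20.1 ± 1.45 FPKM, against 5.16 ± 0.632 in DU145, 1.78, limma adjusted p = 6.82e-06). LRIG1, which promotes the degradation of MET and EGFR, was near 0 in PC3, at 0.0436 ± 0.0270 FPKM (3 to 10 reads a library) against 1.23 ± 0.30 in BPH-1. PTPN1, a phosphatase of MET, was lower in PC3 (15.7 ± 2.56 FPKM) than in DU145 (32.6 ± 4.13, -1.01, limma adjusted p = 0.000521). ADAM10, a sheddase of MET and AXL, had 6.15 ± 0.255 FPKM in BPH-1, 1.74 ± 1.21 in DU145 (-1.49, limma adjusted p = 0.00137, and -0.94 without replicates 1 and 3) and 0.786 ± 0.385 in PC3 (-2.03, adjusted p = 5.01e-06). ADAM17, the other sheddase, was 8.90 ± 1.75 FPKM in PC3 against 33.0 ± 21.8 in DU145 (-1.51, limma adjusted p = 0.0269) and 18.7 ± 1.91 in BPH-1. DU145 replicates 1 and 3 had 18.8 and 10.0 FPKM of ADAM17 and replicates 2 and 4 had 51.0 and 52.3. Without the libraries that stood apart, PC3 against DU145 was -2.30, and DU145 was higher than BPH-1 (1.43, limma adjusted p = 8.64e-05), which was not called over all libraries (0.51, adjusted p = 0.351).

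**Figure D5:**
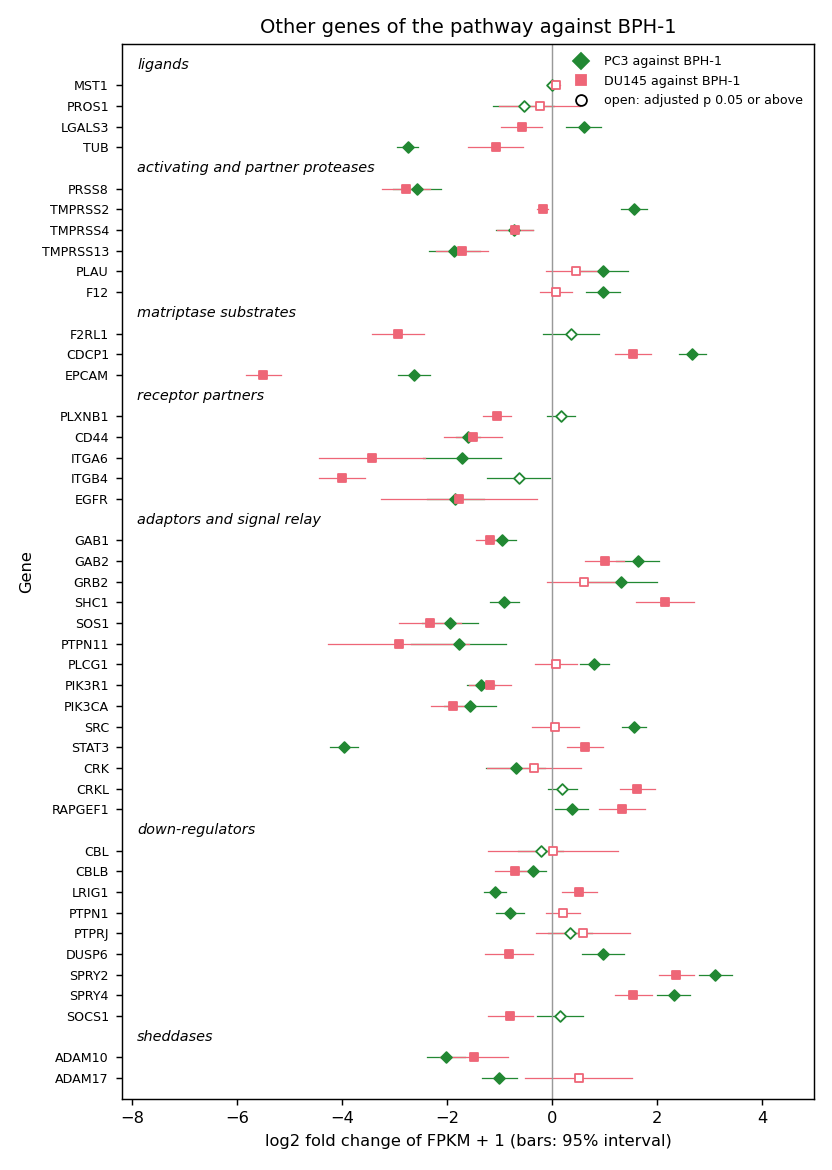
Log2 fold change of FPKM + 1 against BPH-1 for tested genes of the pathway list, grouped by role, with 95% intervals from limma. Green diamonds stand for PC3, red squares for DU145, and open symbols for an adjusted p of 0.05 or above. EPCAM in DU145 at -5.50 lies farthest to the left, and SPRY2 at 3.11 and 2.37 lies to the right in both. Genes that passed the filter on low values only through BPH-1 are drawn too, and their intervals and fill are not read as test results. These are PRSS8, TMPRSS13 and TMPRSS4 in both lines, SOCS1 and TMPRSS2 in DU145, and LRIG1, STAT3 and TUB in PC3.

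By the Pearson correlation of log2(FPKM + 1) over the 12 libraries, the 3 genes most like ST14 among 5744 with a mean of at least 5 FPKM included SAMD9 and DSG3 (r = 0.99 each). SAMD9 had 23.9 ± 7.45 FPKM in BPH-1, 0.0788 ± 0.0777 in DU145 and 0.123 ± 0.108 in PC3, and DSG3, a desmosomal cadherin of stratified epithelia, had 18.2 ± 5.09, 0.0112 ± 0.0223 and 0 FPKM. The genes most like AXL were XBP1 (r = 0.99), SRF and TBCB (r = 0.98 each), and SRF had 89.3 ± 18.7 FPKM in DU145, 31.2 ± 3.59 in PC3 and 26.4 ± 2.35 in BPH-1. For MET they were SPAG9, EFCAB14 and PCNX1 (r = 0.99 each), and SPAG9 had 12.7 ± 0.684 FPKM in BPH-1, 3.95 ± 3.05 in DU145 and 9.89 ± 3.69 in PC3. The libraries of a line share that line and its depth, and those that stood apart share their low level of GC-poor genes, so these values are descriptions only.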

How the data were processed

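Total RNA (per the labels) of BPH-1, DU145 and PC3 was sequenced, 4 libraries each. The authors deposited 1 table of 58302 genes, with read counts divided by gene length and library depth into values of the form of FPKM, for which the header names no unit. The submitters' processing notes list CASAVA 1.8, HISAT2 2.1.0 and edgeR, with GRCh38, and whether strand was counted is not given in the sources used here. Whole reads and the depth of each library (12950665 to 16309560 reads) were recovered from the steps of low values, with gene lengths from GENCODE 29. Between 96.6% and 97.2% of low values came out whole within 0.05, and 263 genes without a length were left out. Depth limits cover counting error only.

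Because the table held FPKM and not counts, log2(FPKM + 1) was modelled with limma (version 3.58.1, R 4.3.3) and a mean-variance trend. Each fit held the 2 lines compared. Genes needed at least 10 reads in at least 4 libraries and 15 in all, and calls were made at a Benjamini-Hochberg adjusted p under 0.05 over all genes tested. The script was tested on simulated data. Replicates differed by more than counting noise in all 18 pairs within lines. The alternatives were other filters, log2(FPKM + 0.1), 1 fit over 3 lines, a replicate block, other scalings, dividing out each library's GC trend (a spline with 5 degrees of freedom), voom on recovered reads, a fold threshold, no overlap and leaving out each library. Leaving out the 3 libraries that stand apart was added after seeing the data.

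The members, the pathway list and the markers were chosen with earlier results of these data known. The text names all members, every ligand and protease of the pathway list, its other genes with an adjusted p under 0.05 and an absolute log2 fold change of at least 1, and the 3 genes most like MET, AXL and ST14, except a few genes that are left out here. Promoters were taken from RefSeq on GRCh38.p14. Figures were drawn with matplotlib 3.10.9.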

Additional observations from a re-analysis of the deposited data

Results flagged for a closer look

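With 36 groups of 4 libraries examined, 4 held a library far from the rest by Dixon's criterion, where chance gives about 5%. These were HGF in BPH-1 replicate 1 (0.0168 FPKM, from 3 reads, the other libraries being at 0), SPINT1 in DU145 replicate 2 (0.809 FPKM), SPINT1 in PC3 replicate 3 (9.08 FPKM) and SPINT2 in BPH-1 replicate 2 (19.2 FPKM). None of them is a library that stood apart in its GC-poor genes.

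For 7 of the 9 members tested, the effect against BPH-1 differed between the PCa lines, tested as PC3 against DU145 in limma. In that comparison 48.4% of all 16374 genes tested were called. The log2 fold change was 2.1 for MET, 1.91 for MST1R, -1.91 for AXL, -1.12 for MERTK, -1.38 for GAS6, 1.71 for SPINT1 and 2.62 for SPINT2. The value of MET rested on libraries named above.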

How the results depend on the processing

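Over 27 member results and 19 alternatives each, 464 of 513 values kept their direction and side of the threshold, 31 no longer passed it, 6 came to pass it and 12 changed sign, and 20 results kept both under every alternative run. With an absolute log2 fold change over 1 required, 4 members and 23 genes of the pathway list were called in PC3 against BPH-1. Of all 16417 genes tested there, 1542 were higher and 2891 lower by that rule. Dividing out the GC trend left 29, 33 and 30 genes of the list called in the 3 comparisons. Over all genes tested, 3611, 4267 and 4119 were then higher and 7263, 6341 and 5177 lower. With the GC trend divided out, AXL (-0.39) and SPINT2 (-0.23) changed sign in PC3 against BPH-1, and TYRO3 in PC3 against DU145 was 0.16. TYRO3 there was 0.0001 with log2(FPKM + 0.1), 0.0632 with median-of-ratios and 0.0747 with upper-quartile scaling, 0.0028 with voom and 0.22 without the libraries that stand apart, and ranged from -0.14 to 0.11 leaving out each library. The cause was not tested. MET in PC3 against DU145 passed in 12 of 19 alternatives, with adjusted p between 0.000288 and 0.107, MERTK in PC3 against BPH-1 in 10 of 19 and SPINT2 there in 4 of 19. HGF without a filter had an adjusted p of 0.957, 0.752 and 0.671 for PC3 and DU145 against the benign line and for the PCa lines against each other. With the replicate number as a block, 6, 8 and 6 members and 34, 33 and 23 genes of the list were called. Over all genes tested, 4277, 4823 and 2713 were higher and 6482, 5368 and 4039 lower with that block. MET in PC3 against DU145 (limma adjusted p = 0.0656) and SPINT2 in PC3 against BPH-1 (0.0765) no longer passed with it. Of 12 correlations of same-numbered libraries, 2 were over 0.1 (range -0.72 to 0.57). A single component held 63.0% of the variance within lines, so these correlations cannot decide whether the replicate numbers pair the libraries. Leaving out each library, 5 to 7, 8 to 9 and 6 to 7 members were called. Over all genes tested, 4150 to 4481 were then higher and 6323 to 6880 lower in PC3 against BPH-1. In DU145 against BPH-1 these were 4603 to 5511 and 5050 to 5997, and in PC3 against DU145 2808 to 3358 and 4203 to 4881. Depth limits HGF and the low ST14 values.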
